A study of Homo sapiens with 2 samples.

Results

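The miR-200 family was described in A549 cells, a human lung adenocarcinoma cell line of epithelial origin. It comprises 5 mature miRNAs, chosen by name: hsa-miR-200a-3p, hsa-miR-200b-3p and hsa-miR-429, whose hairpins lie on chromosome 1, and hsa-miR-200c-3p and hsa-miR-141-3p, whose hairpins lie on chromosome 12. All 5 names were found among the 859 mature miRNAs listed, which belong to a table of 5475 small RNA features. Cells grown in DMEM medium with calf serum spent 24 h either in 20% oxygen (normoxia) or in 1.2% oxygen (hypoxia), and 1 small RNA library was sequenced per condition. The labels give no genetic modification, and nothing in them says how many cultures stand behind a library. With 1 library per condition there is no replicate error, no test of oxygen and no p-value, and every interval is a 95% interval of counting error only, from reads amplified without molecular identifiers.

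Members of the miR-200 family are abundant in epithelial cells and are best known for repressing ZEB1 and ZEB2, transcription factors that shut down E-cadherin and drive the epithelial-to-mesenchymal transition. ZEB1 and ZEB2 in turn bind E-boxes (CACCTG, or CAGGTG on the other strand) upstream of both miR-200 loci and repress them, so that the miRNAs and the factors form a double-negative loop. A miRNA finds its targets mainly through its seed, bases 2 to 8 from the 5′-end, and the family has 2 seeds. No messenger RNA was measured in these libraries, so neither ZEB1, ZEB2 nor E-cadherin has a value here.

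The mature sequences, taken from RefSeq (GRCh38.p14) for all 5 members, are shown with the seed in capitals because the seed and the locus divide the family differently. The first 3 lines are the chromosome 1 members and the last 2 lines the chromosome 12 members.
miR-200b-3p: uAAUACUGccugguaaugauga
miR-200a-3p: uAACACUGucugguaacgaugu
miR-429: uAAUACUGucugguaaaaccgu
miR-200c-3p: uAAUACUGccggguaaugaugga
miR-141-3p: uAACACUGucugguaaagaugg

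The seed AAUACUG belongs to miR-200b-3p, miR-429 and miR-200c-3p, and the seed AACACUG to miR-200a-3p and miR-141-3p. They differ at a single base, the substitution U4C from miR-200b-3p to miR-200a-3p (positions counted from 1 at the 5′-end). The matching heptamers in a target are CAGUAUU for the first seed and CAGUGUU for the second. Among 2370 RefSeq mature sequences, no sequence outside the family carried either seed. None did among the 859 listed miRNAs either, if each counting window adds 1 base at each end of the mature sequence. This layout was found for 653 of the 687 listed miRNAs with a RefSeq sequence of the same name, and was not established for the others. Each locus encodes both seeds, and each member of chromosome 12 has a close relative on chromosome 1. From miR-200b-3p to miR-200c-3p there are 2 substitutions, U11G and A22G, and 1 extra base at the 3′-end of miR-200c-3p. From miR-200a-3p to miR-141-3p there are also 2, C17A and U22G.

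In GRCh38 the MIR200B hairpin lies on chromosome 1 from 1167104 to 1167198, MIR200A from 1167863 to 1167952 and MIR429 from 1169005 to 1169087, all on the plus strand, with 664 and 1052 bases between neighbours. GENCODE version 29 has no other gene over them, while RefSeq places all 3 within the long noncoding RNA MIR200BHG. The MIR200C hairpin lies on chromosome 12 from 6963699 to 6963766 and MIR141 from 6964097 to 6964191, also on the plus strand, 330 bases apart, and both fall in an intron of the long noncoding RNA MIR200CHG. The windows over which the authors counted are in hg19, per the processing notes, and for each member they hold the mature sequence plus 1 base at each end. They run from 1102539 to 1102562 for miR-200b-3p, 1103295 to 1103318 for miR-200a-3p and 1104434 to 1104457 for miR-429 on chromosome 1, and from 7072904 to 7072928 for miR-200c-3p and 7073317 to 7073340 for miR-141-3p on chromosome 12.

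The E-box was looked for in the promoter windows of both host transcripts (RefSeq, GRCh38, 250 bases before to 50 bases from the annotated start, both strands), since both loci are described as ZEB targets. The MIR200BHG window held 2 matches and the MIR200CHG window 1, each shown in capitals with 12 flanking bases on either side.
MIR200BHG, chr1:1162763-1162792, plus strand: gcccaggggacaCACCTGtcgggggccagg
MIR200BHG, chr1:1162807-1162836, plus strand: agcgggagctcgCACCTGtgtggggcgggg
MIR200CHG, chr12:6963155-6963184, plus strand: ggcaggaggacaCACCTGtgcgcagggtgg
The matches start 102 and 58 bases before the annotated start of MIR200BHG and 78 bases before that of MIR200CHG. The longest run of bases that the windows share, 12 bases long, contains the match (GGACACACCTGT). At least 1 match is present in 20.6% of 35097 such windows and at least 2 in 3.49%, so the motif alone is common, and binding was not measured.

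Values are CPM, counts in a library scaled to 1000000 mature miRNA counts, of which there were 4514818 in normoxia and 8600160 in hypoxia, or 70.0% and 65.6% of all counts in the table. The authors deposited raw counts. The hypoxia library is the deeper one, with 13115226 counts in all against 6449337.

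The family was carried by the chromosome 1 locus, and within it by a single member. miR-200b-3p had 3972 counts in normoxia and 9327 in hypoxia, or 879.8 CPM (853 to 908) and 1085 CPM (1063 to 1107). It supplied 75.5% of the counts of the 5 members in normoxia and 79.7% in hypoxia. miR-200a-3p, from the next hairpin, had 598 and 1186 counts, or 132 CPM (122 to 143.5) and 138 CPM (130.2 to 146). miR-429, the most distal of the chromosome 1 hairpins, had 413 and 752 counts, or 91.5 CPM (82.9 to 101) and 87.4 CPM (81.3 to 93.9). In both libraries the order on chromosome 1 thus followed the order of the hairpins, and no neighbours in it had overlapping intervals. miR-200b-3p had 6.64 counts per count of miR-200a-3p in normoxia and 7.86 in hypoxia.

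The chromosome 12 members were the lowest of the family. miR-200c-3p, which shares its seed with miR-200b-3p, had 109 counts in normoxia and 213 in hypoxia, or 24.1 CPM (19.8 to 29.1) and 24.8 CPM (21.6 to 28.3). miR-141-3p, which shares its seed with miR-200a-3p, had 168 and 219 counts, or 37.2 CPM (31.8 to 43.3) and 25.5 CPM (22.2 to 29.1). miR-141-3p lay above miR-200c-3p in normoxia with intervals that did not overlap, and the 2 could not be told apart in hypoxia. Levels on chromosome 12 thus did not follow the order of the hairpins, in which MIR200C comes before MIR141. Lengths of 22 or 23 bases mean that a count per base would give the same order, but the yield of each sequence in ligation was not measured here, so the order of counts need not be that of molecules.

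**Figure D1:**
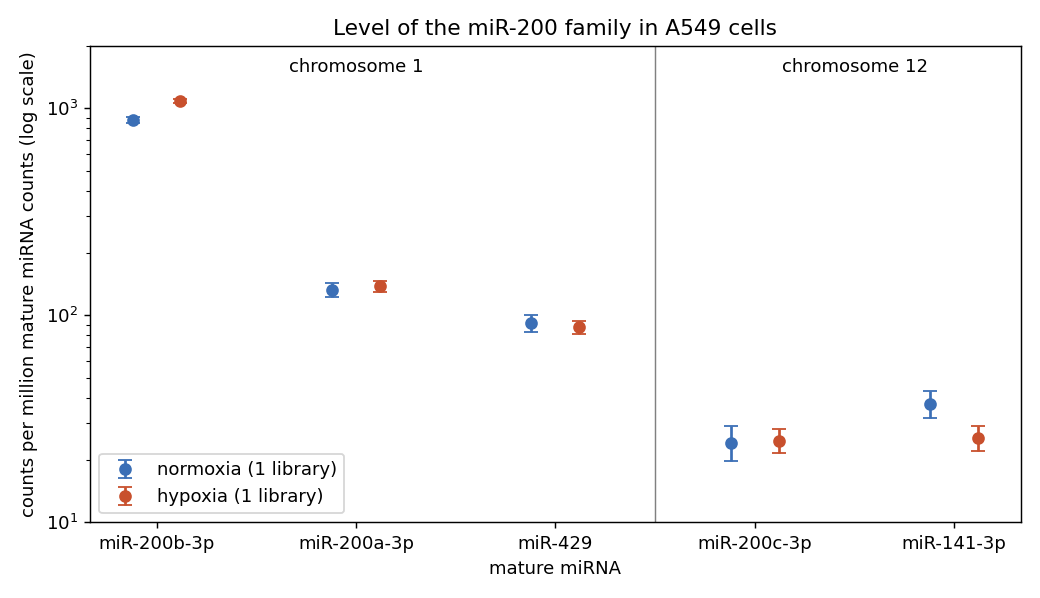
Level of each member in the normoxia and hypoxia libraries, in CPM of mature miRNA counts on a log scale, with exact Clopper-Pearson 95% intervals of counting error as bars and 1 library per condition. The chromosome 1 members, left of the line, lie between 87.4 and 1085 CPM, and the chromosome 12 members between 24.1 and 37.2 CPM.

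Among the 859 mature miRNAs, miR-200b-3p ranked 66 in normoxia and 62 in hypoxia. miR-200a-3p ranked 132 and 131, and miR-429 156 and 163. The chromosome 12 members were further down, with ranks 243 and 251 for miR-200c-3p and 215 and 247 for miR-141-3p. The 5 members together made up 0.117% of mature counts in normoxia (0.113% to 0.120%) and 0.136% in hypoxia (0.134% to 0.138%). miR-21-5p, the most abundant miRNA of both libraries, took 72.2% and 68.4%.

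**Figure D2:**
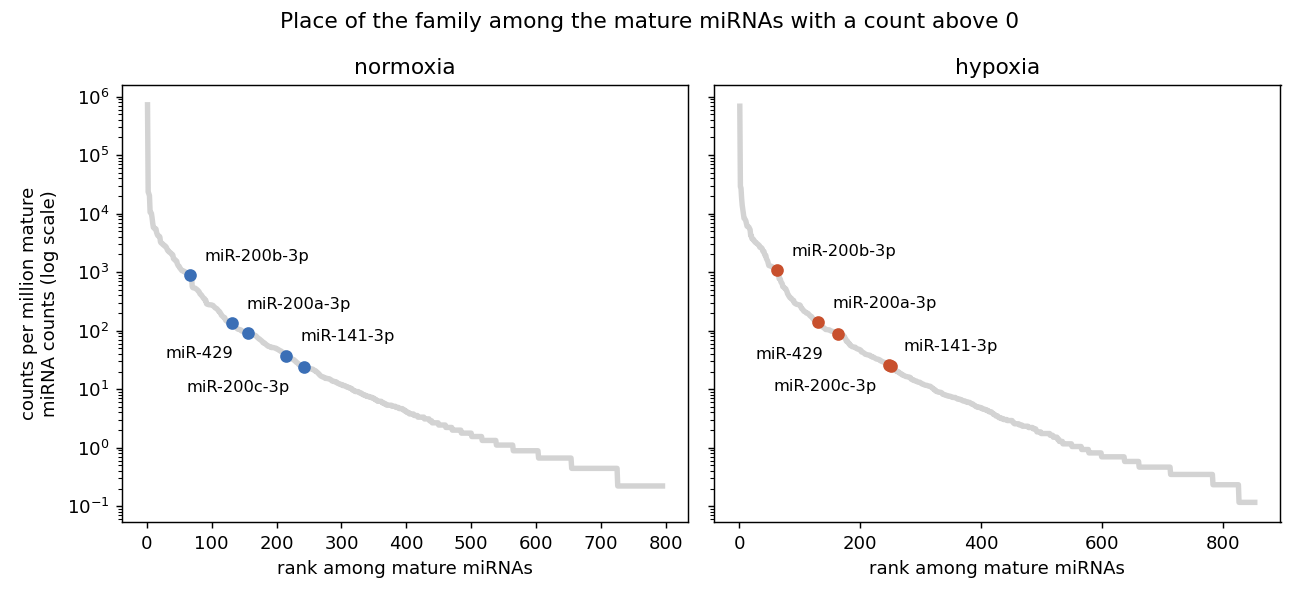
CPM of mature miRNA counts (log scale) against rank for all mature miRNAs with a count above 0 (grey line) in the normoxia and hypoxia libraries, with the 5 members as points. miR-200b-3p lies at rank 66 and 62, and the chromosome 12 members lie beyond rank 200 in both libraries.

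Set beside each other, the loci differed by more than an order of magnitude in both libraries. The 3 chromosome 1 members had 4983 counts in normoxia and the 2 chromosome 12 members 277, or 17.99 counts per count. In hypoxia these were 11265 and 432, or 26.1 counts per count. Scaled to mature miRNA counts, chromosome 1 gave 1104 CPM (1073 to 1135) in normoxia and 1309.9 CPM (1286 to 1334) in hypoxia. Chromosome 12 gave 61.4 CPM (54.3 to 69.0) and 50.2 CPM (45.6 to 55.2). The chromosome 12 share of the family was 5.27% (4.68% to 5.90%) in normoxia and 3.69% (3.36% to 4.05%) in hypoxia. On the log2 scale the ratio of chromosome 12 to chromosome 1 changed by -0.54 from normoxia to hypoxia (-0.76 to -0.31, SE 0.11 from counting), a value on which the scaling between libraries has no effect. With each member given equal weight it was -0.35. Whether reads of the chromosome 1 members were counted on the chromosome 12 members was not tested.

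This change of the locus ratio drew most on miR-141-3p. Without miR-141-3p it was -0.21 and its interval held 0 (-0.55 to 0.13). Without miR-200b-3p it was -0.30 (-0.54 to -0.05), while without miR-200c-3p it was -0.79 (-1.09 to -0.50). Of the 6 pairs made of 1 member from each locus, the 3 with miR-141-3p changed with intervals that excluded 0, and the 3 with miR-200c-3p had intervals that held it. Pairs within a locus changed as well. The ratio of miR-429 to miR-200b-3p changed by -0.37 (-0.55 to -0.19), that of miR-200a-3p to miR-200b-3p by -0.24 (-0.40 to -0.09), and that of miR-141-3p to miR-200c-3p by -0.58 (-1.03 to -0.14). These 3 were among the 4 pairs within a locus, and the remaining pair, miR-429 and miR-200a-3p, had an interval that held 0. The largest change of a pair was 0.58 in size within a locus and 0.85 between the loci (miR-141-3p to miR-200b-3p, -0.85, -1.14 to -0.55), and the spread between cultures was not measured. The pairs with miR-141-3p share its counts, and miR-200c-3p rests on only 109 counts in normoxia and 213 in hypoxia. How often pairs of other miRNAs change in this way was not computed. The log2 ratios of the 339 miRNAs with a mean log2 CPM above 3 had an SD of 0.51.

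**Figure D3:**
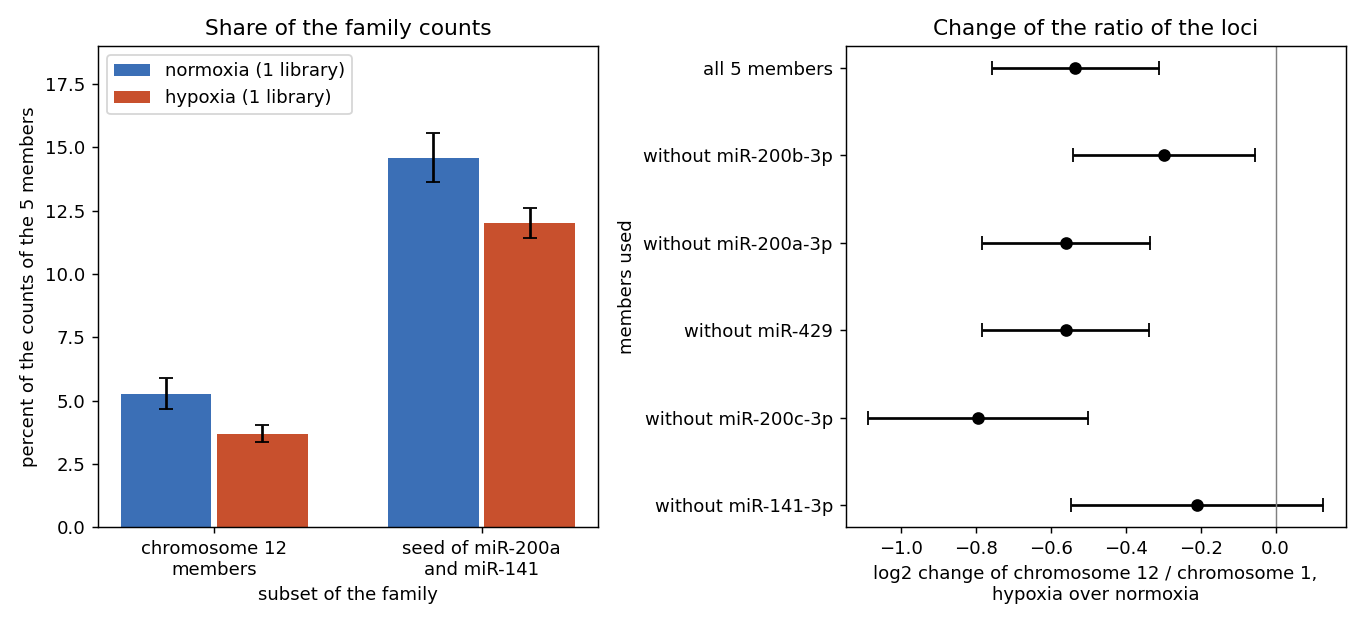
Left, percent of the counts of the 5 members that fell on the chromosome 12 members and on the seed of miR-200a and miR-141 in each library, with exact 95% counting intervals as bars. Right, log2 change from normoxia to hypoxia of the chromosome 12 to chromosome 1 ratio with all 5 members and without each of them, with 95% counting intervals as bars. The value is -0.54 with all members and -0.21 without miR-141-3p.

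Divided by seed in place of locus, the family was mostly AAUACUG. Its 3 members gave 995 CPM (967 to 1025) in normoxia and 1197 CPM (1174 to 1220.1) in hypoxia. The AACACUG members gave 169.7 CPM (158 to 182) and 163 CPM (155 to 172). The AACACUG share was 14.6% (13.6% to 15.5%) in normoxia and 12.01% (11.4% to 12.6%) in hypoxia, a log2 change of the ratio of -0.32 (-0.46 to -0.18). Without miR-200b-3p, which alone carries most of the other seed, it was -0.011 (-0.21 to 0.19), and without miR-200a-3p it was -0.81 (-1.11 to -0.52). The seeds were mixed unequally in the loci, since the AACACUG share was 12.001% on chromosome 1 and 60.6% on chromosome 12 in normoxia, and 10.53% and 50.7% in hypoxia.

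Between the libraries no member reached the size rule, an absolute log2 ratio of hypoxia over normoxia of at least 0.9 with a mean log2 CPM above 3. All 5 members passed its level filter, as did 339 of the 859 mature miRNAs, of which 23 reached the rule (6.78%), 12 higher (3.54%) and 11 lower (3.24%) in hypoxia. This near-even split held only when scaled to mature miRNA counts, since 8 were higher and 15 lower under TMM and under DESeq2 size factors, 5 and 18 with totals without the most abundant miRNAs, and 7 and 12 (of 302) with all counts as the denominator. The median log2 ratio was 0.036 over the 5 members and 0.079 over the 339 miRNAs, whose ratios had an SD of 0.51. miR-200b-3p had a log2 ratio of 0.30 (0.25 to 0.36), the highest of the family, and it was the only member above the median of all. It stayed above 0 under the 5 scalings, from 0.11 to 0.30. miR-141-3p had the lowest, -0.54 (-0.84 to -0.25), and stayed below 0, from -0.74 to -0.54. It lay in the lower part of the distribution, with 33 of the 339 miRNAs below it.

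The other members lay near the middle of all miRNAs. miR-200a-3p had a log2 ratio of 0.058 (-0.085 to 0.20) and miR-200c-3p of 0.036 (-0.30 to 0.38), and both were above 0 when scaled to mature miRNA counts and below 0 under the other 4 scalings. miR-429 was at -0.065 (-0.24 to 0.11) and below 0 under all 5 scalings. The sum of the family was at 0.22 (0.18 to 0.27), and was 0.028 when totals left the most abundant miRNAs out. The scalings moved the median of all miRNAs from -0.12 to 0.079. The sum of the family lay above that median by 0.14 when scaled to mature miRNA counts and by 0.14 to 0.15 over the 5 scalings. A scaling shifts the sum and the median almost equally, so this difference is nearly fixed by construction. The sum is mostly miR-200b-3p, with 75.5% of the family counts in normoxia and 79.7% in hypoxia. No other member lay above the median when scaled to mature miRNA counts. For comparison, miR-210, the miRNA best known for induction by hypoxia-inducible factors, went from 4307 to 22849 counts, a log2 ratio of 1.48 when scaled to mature miRNA counts.

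**Figure D4:**
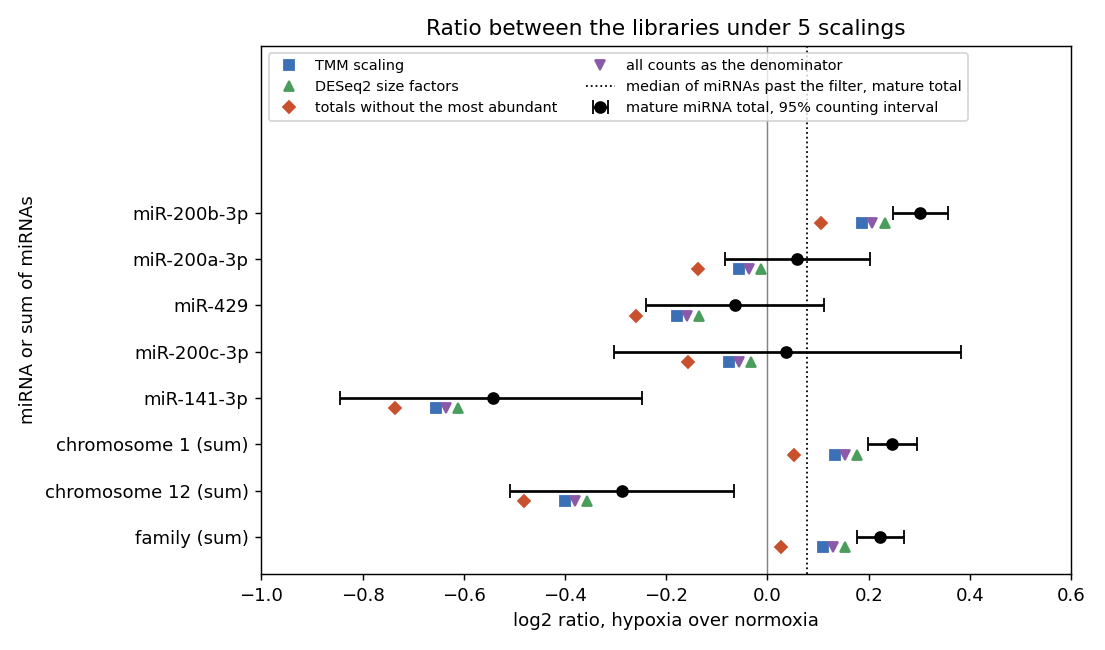
Log2 ratio of hypoxia over normoxia for each member and for the sums over each locus and the family, scaled to mature miRNA counts (black points, with 95% counting intervals as bars) and under the 4 other scalings (coloured marks). miR-200b-3p stays above 0 and miR-141-3p and miR-429 below 0 under all 5 scalings, while miR-200a-3p and miR-200c-3p change sign.

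The 3p arm was the dominant product of each hairpin with both arms listed. miR-200b-5p had 25 counts in normoxia and 52 in hypoxia, so that the 3p arm took 99.4% of the hairpin's counts in both libraries (99.1% to 99.6% and 99.3% to 99.6%). miR-200a-5p had 18 and 15 counts, which left 97.1% (95.4% to 98.3%) and 98.8% (97.9% to 99.3%) to the 3p arm. miR-141-5p had 4 and 1 counts, which left 97.7% (94.2% to 99.4%) and 99.5% (97.5% to 99.99%). Over 150 hairpin names with both arms listed and at least 100 counts, the dominant arm took a median of 93.6% (quartiles 82.6% and 99.2%), and it was the 3p arm in 62. miR-200c-5p is not listed and no 5p arm is named for miR-429 in the table. No listed feature has under 3 counts in the 2 libraries together, so an arm that is not listed may have had 1 or 2.

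MIR141 and MIR200B are also listed as rows of their own, with few counts, and where in the hairpins these reads lie was not analysed here. The MIR141 hairpin had 0 counts in normoxia and 11 in hypoxia, and MIR200B 1 and 5. Beside the 3p arms, miR-141-5p and the MIR141 row are the listings from the chromosome 12 hairpins. miR-200b-3p had 36.4 and 43.8 counts per count of miR-200c-3p in normoxia and hypoxia, and miR-200a-3p had 3.56 and 5.42 per count of miR-141-3p. Because each of these pairs differs by 2 substitutions, the low chromosome 12 counts are uncertain as separate measurements. Whether reads of the chromosome 1 members were counted on them was not tested.

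The label of the family as epithelial was set beside other miRNAs. Of 9 other miRNAs enriched in epithelia, all were listed, with a summed level of 4644 CPM in normoxia and 4959 CPM in hypoxia, and 7 passed the level filter, none of them past the size rule (median log2 ratio 0.15, from -0.45 to 0.41). miR-192-5p alone, a miRNA of gut and liver epithelium, had 2217 and 2285 CPM, above the sum of the miR-200 family. miR-183-5p, of a cluster expressed in sensory and other epithelia, had 471 and 524 CPM, and miR-96-5p of the same cluster 326 and 238 CPM. At the other end, miR-205-5p, typical of squamous and basal epithelium, had 2.66 and 1.74 CPM, and miR-203, of stratified epithelium, 3.77 and 3.49 CPM. miR-375, of endocrine and secretory epithelium, had 9.30 and 10.6 CPM.

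The 6 mesenchymal miRNAs, such as miR-143-3p and miR-199a-3p, summed to 381 CPM in normoxia and 377 CPM in hypoxia, above the sum of the chromosome 12 members and below that of chromosome 1. miR-199a-3p and miR-199b-3p are listed with the same sequence and had 441 and 446 counts in normoxia and 888 and 890 in hypoxia, so they are uncertain as separate measurements. Both are in the mesenchymal sum, which is too high if the same reads were counted under both names. That was not tested. The 2 endothelial miRNAs, both arms of miR-126, summed to 222 and 221 CPM. Of 6 blood miRNAs, 4 were listed, with a sum of 19.9 and 23.4 CPM, nearly all of it miR-451a, and miR-223-3p was not listed. All 6 mesenchymal and both endothelial miRNAs passed the level filter and none of them reached the size rule. Of the blood miRNAs only miR-451a passed the filter, with a log2 ratio of 0.29, and their part in the levels of the miR-200 family was not tested.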

How the data were processed

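Small RNAs of A549 cells were sequenced, 1 library in normoxia and 1 in hypoxia. The deposited values are raw counts for each small RNA, which the authors did not normalize. SOLiD reads were, by the methods, processed in LifeScope version 2.5.1 and counted on miRBase version 18, although this experiment is not named there, and the processing notes name hg19.

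Rows with a miRBase mature identifier were used, in Python version 3.11.15 with scipy version 1.17.1. Log2 ratios are differences of log2 CPM, scaled to mature miRNA counts with a prior count of 2. Intervals of levels and shares are exact (Clopper-Pearson), those of ratios between libraries are exact conditional binomial, and those of ratios of ratios use the normal approximation on the log scale, all at 95%. Alternatives were TMM (edgeR version 4.0.16), DESeq2 version 1.42.0 size factors, other totals, thinning and another prior count. The calculation was tested on simulated data. The size rule uses the thresholds of the study's RNA sequencing. The members and lists were chosen with earlier results of these data known. The text names the members, their 5p arms, miR-210, the most abundant miRNA, the lists and the miRNAs nearest in level.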

Additional observations from a re-analysis of the deposited data

How the results depend on the processing

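No paired analysis was possible because normoxia and hypoxia are 1 library each, so no library could be left out either. Of 90 values recomputed under alternatives, 56 stayed within the counting interval of the reported value, or within 1.5 times for a count. Some alternatives, such as the other prior count, could move ratios only a little. A value that rests on many counts has a narrow interval and leaves it more easily. The number that stayed is therefore no measure of robustness. Under TMM, DESeq2 size factors, totals without the most abundant miRNAs and all counts as the denominator, the log2 ratio of the family was 0.11, 0.15, 0.028 and 0.13, and that of chromosome 1 was 0.13, 0.18, 0.051 and 0.15. That of chromosome 12 stayed within its interval.

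With all counts as the denominator the family share was 0.0816% in normoxia and 0.0892% in hypoxia, by construction. The chromosome 12 share in normoxia and hypoxia was 21.5% and 18.2% without miR-200b-3p, 5.94% and 4.11% without miR-200a-3p, 3.26% and 1.91% without miR-200c-3p, and 2.14% and 1.86% without miR-141-3p, since members were removed. The change of the locus ratio was -0.30, -0.79 and -0.21 without miR-200b-3p, miR-200c-3p and miR-141-3p, and that of the seed ratio -0.011 and -0.81 without miR-200b-3p and miR-200a-3p.

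Over all miRNAs, the size rule gave 5 higher and 18 lower (21.7% higher) with totals without the most abundant, 8 and 15 (34.8%) under TMM and DESeq2, 113 and 64 without the level filter, as more miRNAs are then considered, and 8 and 6 at a log2 ratio of 1, in place of 12 and 11 (52.2%). Beyond these constructions, the cause was not tested. Depth limits miR-141-5p and the MIR200B hairpin row, for which no direction can be read.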

Other observations

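The miRNAs whose pair of levels was nearest to the most abundant member of each locus were found by Euclidean distance of log2 CPM over the 2 libraries. For miR-200b-3p these were let-7e-5p, a member of the let-7 family, at a distance of 0.17 (941 CPM in normoxia and 1192 in hypoxia), and miR-99a-5p at 0.23 (1007 and 1001 CPM). For miR-141-3p they were miR-628-5p at 0.099 (36.1 and 27.1 CPM) and miR-195-5p at 0.13 (40.8 and 25.5 CPM). With 2 libraries, such likeness says only that these levels were close.

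The counts of the 3p arm per count of the 5p arm were 159 in normoxia and 179 in hypoxia for MIR200B, and 33.2 and 79.1 for MIR200A, whose 5p arm rests on 18 and 15 counts.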
